A study of Homo sapiens with 9 samples.

Results

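The genes described here are 31 enzymes of carbohydrate breakdown and storage, covering glycolysis, lactate formation, the pentose phosphate pathway and glycogen turnover, out of 32997 genes in the expression table. They were chosen by name, as the rows of the table whose gene symbol is on a list of these enzymes, a rule that uses no measured value, although the list was drawn up with earlier results of these data known. RNA was sequenced from the human ovarian cancer line ES-2 in 3 groups of 3 libraries: cells overexpressing OTUB2, a deubiquitinating enzyme, cells overexpressing SNX29P2, a transcribed pseudogene of a sorting nexin gene, and cells carrying an empty vector. All groups grew in the same serum-containing medium and received no treatment. The series title links OTUB2 to metabolic reprogramming and to CA9, so the question put here was whether the enzymes that handle glucose changed at the RNA level. The labels do not say whether a group was 1 clone or a pool, nor whether its 3 libraries stem from separate cultures. The p-values therefore describe the variation among these libraries, which may be technical.

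Glycolysis cleaves glucose to pyruvate in the cytosol and yields ATP and NADH, and lactate dehydrogenase regenerates the oxidised cofactor by turning pyruvate into lactate. The pentose phosphate pathway draws on the same hexose phosphate to make NADPH and ribose phosphate, and glycogen synthase and phosphorylase store and release it. Many cancer cells ferment glucose even with oxygen present, and many glycolytic genes are targets of hypoxia-inducible factor (HIF), an oxygen-sensitive transcription factor that also drives CA9, and several are targets of MYC.

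HIF often binds DNA at sites built around the letters ACGTG, which are also contained in CACGTG, the E-box bound by MYC and by the glucose-responsive Mondo proteins. The 250 bases before the annotated start are shown for the aldolase gene ALDOC, the phosphoglycerate kinase gene PGK1 and the phosphofructokinase gene PFKL, because these HIF-list genes were among the members whose libraries lay below every vector library in both overexpression groups. The sequences are from RefSeq on GRCh38.p14 and read along the gene's own strand, with ACGTG on either strand in capitals. The windows are chr17:28576896-28577145 on the minus strand for ALDOC, chrX:78103998-78104247 on the plus strand for PGK1 and chr21:44299803-44300052 on the plus strand for PFKL.
ALDOC: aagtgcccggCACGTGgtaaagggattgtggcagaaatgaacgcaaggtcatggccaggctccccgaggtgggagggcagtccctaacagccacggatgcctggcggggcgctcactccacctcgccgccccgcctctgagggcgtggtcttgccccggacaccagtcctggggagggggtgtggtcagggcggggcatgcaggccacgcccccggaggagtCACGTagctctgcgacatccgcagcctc
PGK1: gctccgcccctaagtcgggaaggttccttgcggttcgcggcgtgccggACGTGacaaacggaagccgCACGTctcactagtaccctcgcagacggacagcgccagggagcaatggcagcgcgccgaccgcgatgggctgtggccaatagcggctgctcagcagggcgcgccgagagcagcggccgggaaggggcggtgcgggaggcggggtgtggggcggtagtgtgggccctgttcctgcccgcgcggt
PFKL: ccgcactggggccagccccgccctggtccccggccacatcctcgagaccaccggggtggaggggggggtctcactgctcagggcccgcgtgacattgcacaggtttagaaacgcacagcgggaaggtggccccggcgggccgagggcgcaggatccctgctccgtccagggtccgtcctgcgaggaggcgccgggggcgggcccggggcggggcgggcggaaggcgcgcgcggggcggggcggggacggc

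The ALDOC window held 3 matches, of which the pair starting 240 and 239 bases before the start is 1 palindromic E-box read on both strands, and the other lies 28 bases before it. PGK1 held 2 matches, 202 and 183 bases before its start, and PFKL held 0. All 31 members had a promoter in the table, with 55 windows, since several genes have more than 1 start. A match was present in 19 of the 55 windows (34.5%), against 6501 of the 35116 windows of all genes (18.5%). Of the 31 members, 16 had a match in at least 1 window. For the 16 members on a textbook list of HIF targets, 14 of 26 windows had one (53.8%). A match is a stretch of letters and not a measured binding site. Other forms of the HIF site were not searched, so a window without a match may still hold one.

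Before the results, the libraries were checked. OTUB2 RNA was at 37.6, 42.6 and 38.4 RPKM (reads per kilobase of gene and 1000000 reads) in the OTUB2 libraries, against 1.31, 1.16 and 1.04 RPKM in the vector libraries, and SNX29P2 reached 41.0, 55.1 and 47.6 RPKM in the SNX29P2 libraries, against at most 0.0665 RPKM in the vector libraries. Depth, in units of 1000000 reads in genes, was 43.6 ± 4.43 with OTUB2, 44.3 ± 3.86 with SNX29P2 and 40.8 ± 2.13 with the vector (SD, n = 3 each). The ES-2 label met mixed markers: the keratins KRT7, KRT8 and KRT18 and the mesenchymal VIM were abundant, while EPCAM, KRT19 and the clear cell marker NAPSA were at or near 0, and the endothelial CDH5 was at 17.6 to 23.6 RPKM with PECAM1 and VWF near 0. The marker sums of the fibroblast list (2 of 4 genes in the table) were 49.3 to 69.2 RPKM with OTUB2, 45.5 to 65.0 RPKM with SNX29P2 and 64.6 to 86.0 RPKM with the vector, nearly all of it COL1A1. The summed mesenchymal markers (3 of 3, VIM, FN1 and CDH2) were 1071 to 1179 RPKM with OTUB2, 1095 to 1137 RPKM with SNX29P2 and 1232 to 1293 RPKM with the vector, so the vector libraries lay above all others, as they did for 6 of the members below. Its part in the results was not tested. OTUB2 replicate 1 stood apart: it held the haemoglobin genes HBB at 186 RPKM (9309 reads) and HBA1 at 65.9 RPKM (2335 reads), where the other 8 libraries had at most 16 reads of HBB and 0 of HBA1. It also held 118 reads of the leukocyte gene PTPRC, against at most 2 elsewhere, 34 of CD3E, against 0 elsewhere, and 38 of CD14, against at most 6. Summed over the erythroid markers (2 of 2 in the table), levels were 0 to 252 RPKM with OTUB2, 0 with SNX29P2 and 0 to 0.352 with the vector, and over the leukocyte markers (3 of 4) 0.0266 to 1.09, 0.0275 to 0.0694 and 0 to 0.0257 RPKM. The part of this RNA in the results was not tested. The members' calls and median with OTUB2, the ALDOC and HK1 values and the CA9 and GAA calls are also given without that library.

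Most of the enzymes were highly expressed. On the RPKM scale, which is per gene length, 10 of the 31 exceeded a mean of 100 RPKM over the 9 libraries, 27 exceeded 10 and 30 exceeded 1. GAPDH led with 1254 RPKM and ranked 26th of the 16533 tested genes, ahead of the enolase ENO1 (671), the lactate dehydrogenase LDHB (259), the isomerase TPI1 (256), the mutase PGAM1 (254), the pyruvate kinase PKM (235) and LDHA (198). ENO3 (155), the aldolase ALDOA (141) and PGK1 (113) closed that group. The lowest were ALDOC at 1.39 RPKM and the liver-type glycogen phosphorylase PYGL at 0.471 RPKM. All 31 members passed the filter of 0.5 RPKM in at least 3 libraries, PYGL with 4 libraries (OTUB2 replicates 1 and 2 and vector replicates 1 and 2). Together they took 1.64% to 1.77% of the reads in genes.

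**Figure D1:**
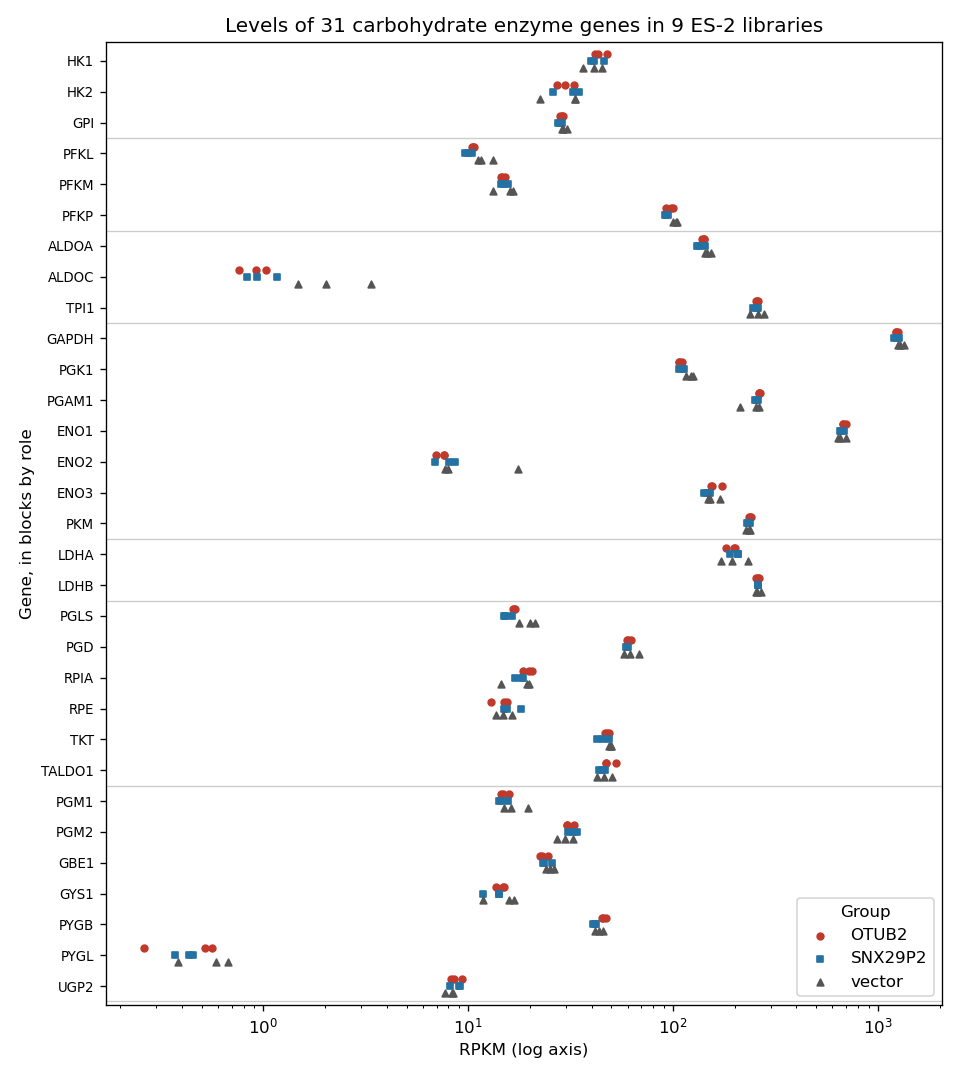
RPKM on a log axis for each of the 31 genes, in blocks by role, with 1 point for each of the 9 libraries (3 per group). GAPDH lies near 1254 RPKM and PYGL near 0.471 RPKM, and for most genes the points of the groups overlap.

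In 27 of 31 members the highest library was under 1.5 times the lowest, and the median within-group SD on the log2 scale was 0.0902, against 0.155 over all tested genes. PKM varied least, 1.05-fold over 9 libraries, and ALDOC most, 4.43-fold.

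No member passed the test in either comparison with the vector. With limma and Benjamini-Hochberg adjustment over all 16533 tested genes, 0 of 31 were called with OTUB2, where 0.0181% of all genes (3) were called, and 0 of 31 with SNX29P2, where 0.0363% (6) were called. At an unadjusted limma p under 0.05, members numbered 3 of 31 with OTUB2 (9.68%, against 6.73% of all genes) and 5 of 31 with SNX29P2 (16.1%, against 8.21%). A limma voom fit on reads recovered from the table also called 0 members in both. In these bulk data, fewer cells carrying a transcript and less of it per cell cannot be told apart.

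More members lay below the vector level than above it. With OTUB2, 20 of 31 had a negative log2 fold change and the median was -0.04, against 48.0% negative and a median of 0.01 over all tested genes. With SNX29P2, 21 of 31 were negative and the median was -0.06, against 46.4% and 0.01. Each library was also set against the vector mean. The members' median log2 deviation was -0.03, -0.04 and -0.01 in OTUB2 libraries and -0.03, -0.10 and -0.07 in SNX29P2 libraries. In vector libraries it was 0.06, -0.05 and 0.01, with a pooled within-group SD of 0.0379. On this measure the vector libraries overlapped both overexpression groups. For single genes, OTUB2 and vector libraries did not overlap, with OTUB2 the lower, in 7 members, while 4.91% of all genes were lower in this sense. With OTUB2 the higher there were 0 members, against 5.90% of all genes. With SNX29P2 the lower there were 7 members, against 5.53% of all genes, and with SNX29P2 the higher 0, against 6.13%. The 95% interval of the log2 fold change lay within ±0.5, a 1.41-fold change, for 28 of 31 members with OTUB2 and 27 of 31 with SNX29P2, and the median half-width of the intervals was 0.17, against 0.28 over all genes. Leaving out OTUB2 replicate 1, the OTUB2 median was -0.02 and 0 members were called.

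**Figure D2:**
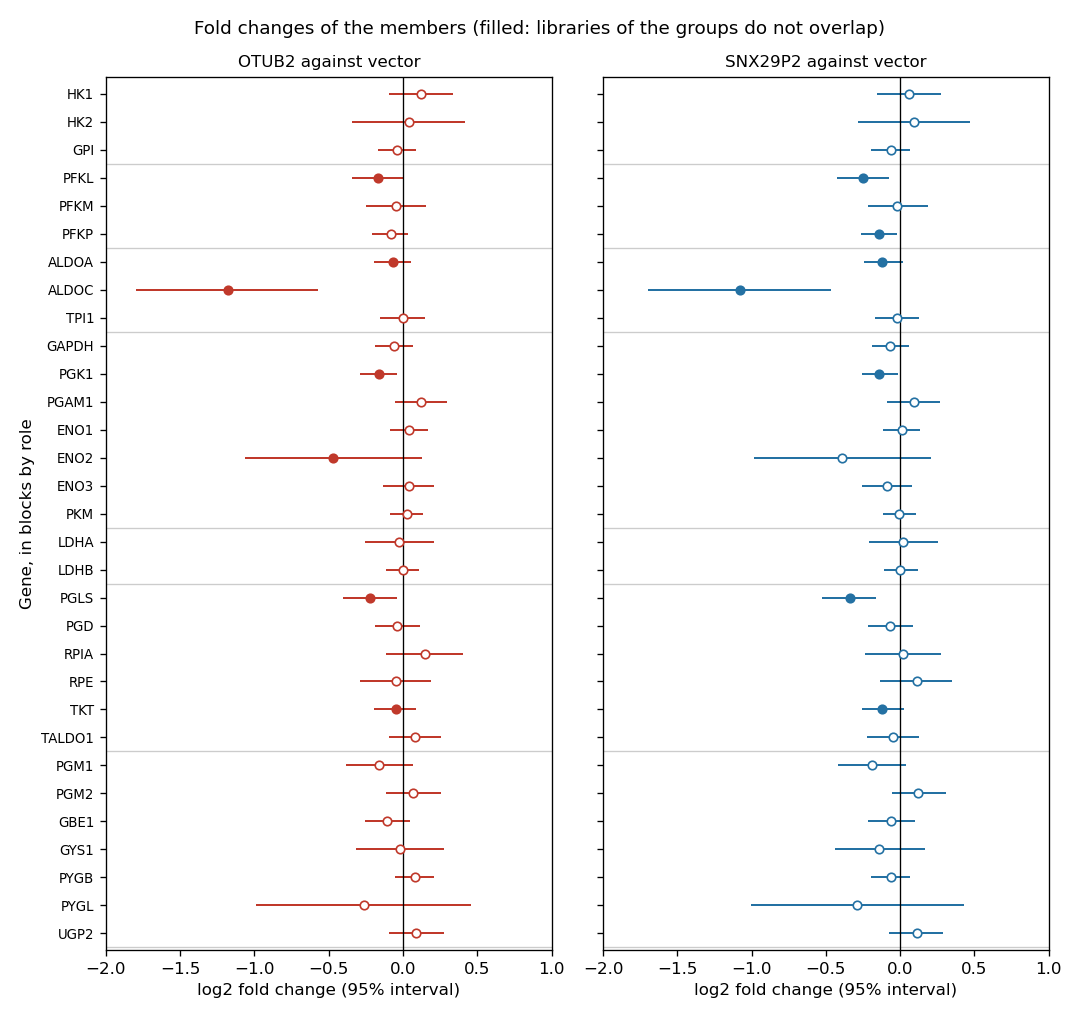
log2 fold change against the vector (points) with 95% intervals (lines), for OTUB2 at left and SNX29P2 at right, with filled points where the libraries of the 2 groups do not overlap. Most intervals cross 0. ALDOC is the farthest from it, at -1.18 with OTUB2 and -1.08 with SNX29P2.

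In both overexpression groups, 6 members lay below every vector library: PFKL, ALDOA, ALDOC, PGK1, the lactonase PGLS and the transketolase TKT. Both comparisons use the same vector libraries, so the counts are not independent and the values are given side by side.

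**Figure D3:**
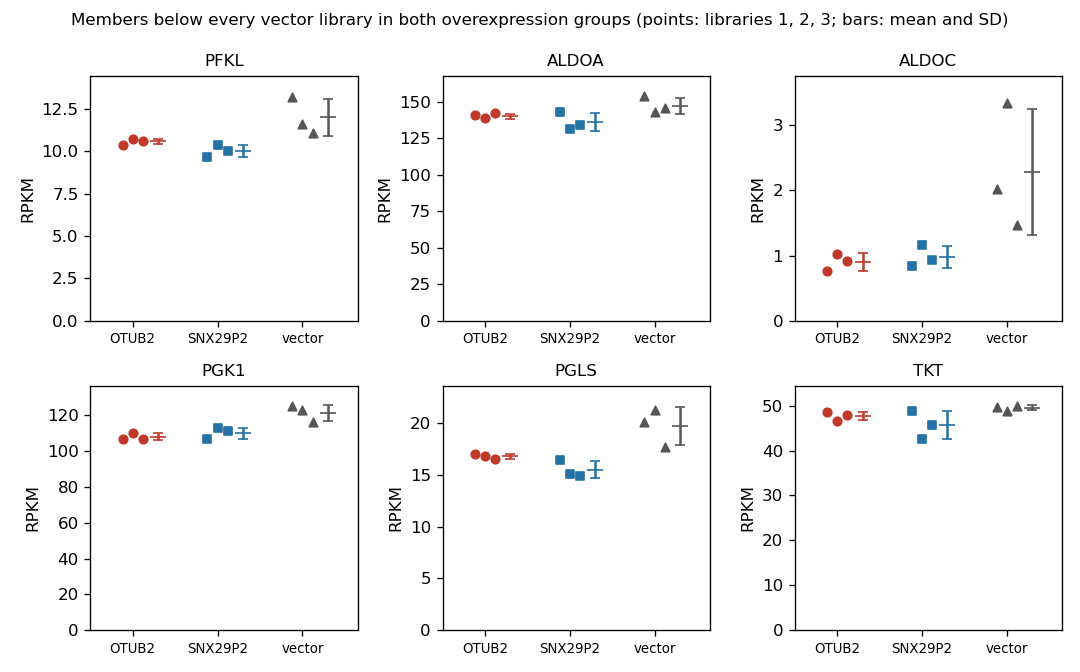
RPKM of the 6 genes in each library (points), with the mean and SD of each group (n = 3), for OTUB2, SNX29P2 and vector from left to right and an axis from 0. The vector libraries lie highest in all 6 panels, and ALDOC shows the widest spread among them, 1.47 to 3.35 RPKM.

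ALDOC, the brain-type aldolase (chr17:28573115-28577264), had 0.757, 1.03 and 0.924 RPKM in OTUB2 libraries, 0.834, 1.17 and 0.926 RPKM in SNX29P2 libraries, and 2.02, 3.35 and 1.47 RPKM in vector libraries. The vector libraries ranged widely, but the lowest of them exceeded every other library. Its log2 fold change was -1.18 with OTUB2 (SE 0.270, 95% interval -1.79 to -0.58, limma adjusted p = 0.481) and -1.08 with SNX29P2 (SE 0.270, 95% interval -1.69 to -0.47, limma adjusted p = 0.488). It rests on 94 to 378 reads per library, and 296 bases of its exons are shared with the antisense gene RP11-192H23.5, at 2.60 RPKM. Without OTUB2 replicate 1 the OTUB2 value was -1.07 and without vector replicate 2 it was -0.87, and with a pseudocount of 1 the values were -0.75 with OTUB2 and -0.69 with SNX29P2. ALDOC stood highest in the number 2 library of every group. The 5 tested genes whose log2 levels followed it most closely over the 9 libraries were ITGA3 (Pearson r 0.992), EEF1A1 (0.982), DKK3 (0.972), RAI1 (0.970) and RNF31 (0.961), picked as the highest of 16533 and shown as a description. Among them ITGA3, an integrin subunit, had 52.5, 59.1 and 55.5 RPKM with OTUB2, 52.2, 58.2 and 54.9 RPKM with SNX29P2, and 70.0, 80.8 and 63.8 RPKM with the vector.

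PGLS, which hydrolyses phosphogluconolactone in the oxidative pentose phosphate pathway (chr19:17511629-17521288), had 17.0, 16.8 and 16.5 RPKM in OTUB2 libraries, 16.4, 15.1 and 14.9 RPKM in SNX29P2 libraries, and 20.1, 21.2 and 17.7 RPKM in vector libraries. Its groups did not overlap in any of the 3 pairs. The log2 fold change was -0.22 with OTUB2 (SE 0.0783, limma adjusted p = 0.688) and -0.34 with SNX29P2 (SE 0.0783, limma adjusted p = 0.488). Of its exon bases, 261 (9.17%) are shared with the antisense gene CTD-3131K8.2, at 10.2 RPKM.

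PFKL, the liver-type subunit of phosphofructokinase (chr21:44300051-44327376), had 10.4, 10.7 and 10.6 RPKM in OTUB2 libraries, 9.65, 10.4 and 10.0 RPKM in SNX29P2 libraries, and 13.2, 11.6 and 11.1 RPKM in vector libraries. Vector replicate 1 stood highest, the vector libraries were above all others, and the OTUB2 libraries lay above the SNX29P2 libraries before rounding. The log2 fold change was -0.17 with OTUB2 (SE 0.0770, limma adjusted p = 0.745) and -0.25 with SNX29P2 (SE 0.0770, limma adjusted p = 0.502). Leaving out vector replicate 1, the PFKL value with OTUB2 was -0.10.

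PGK1, the first ATP-yielding enzyme of glycolysis, encoded on the X chromosome, had 107, 110 and 107 RPKM in OTUB2 libraries, 107, 113 and 111 RPKM in SNX29P2 libraries, and 125, 123 and 116 RPKM in vector libraries. Both overexpression groups lay under the vector group without overlap. The log2 fold change was -0.16 with OTUB2 (SE 0.0518, limma adjusted p = 0.663) and -0.14 with SNX29P2 (SE 0.0518, limma adjusted p = 0.551).

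The remaining members of the 6 differed less. ALDOA, the main aldolase, had 141, 139 and 142 RPKM in OTUB2 libraries, 143, 131 and 134 RPKM in SNX29P2 libraries, and 154, 143 and 146 RPKM in vector libraries, with log2 fold changes of -0.07 and -0.12. TKT had 48.5, 46.6 and 47.8 RPKM in OTUB2 libraries, 48.8, 42.6 and 45.6 RPKM in SNX29P2 libraries, and 49.7, 48.8 and 49.8 RPKM in vector libraries, with log2 fold changes of -0.05 and -0.12. In both genes the nearest vector library was separated from the SNX29P2 libraries only before rounding. Of the ALDOA exon bases, 520 (8.45%) are shared with the antisense gene CTD-2515O10.5, which lies wholly within them, at 119 RPKM.

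Hexokinases and glucose phosphate isomerase start glycolysis by phosphorylating and isomerising glucose. HK1 had 47.8, 41.7 and 42.8 RPKM in OTUB2 libraries, 45.9, 39.9 and 40.9 RPKM in SNX29P2 libraries, and 44.9, 36.2 and 40.9 RPKM in vector libraries. The number 2 library was lowest in each group, OTUB2 replicate 1 was the highest of all, and the groups overlapped. The HK1 log2 fold change with OTUB2 was 0.12, and 0.06 without OTUB2 replicate 1. HK2, the isoform common in tumours, averaged 29.9 ± 2.79 RPKM with OTUB2, 31.1 ± 4.70 RPKM with SNX29P2 and 29.5 ± 6.30 RPKM with the vector (SD, n = 3 each), and GPI stayed between 27.4 and 30.5 RPKM. None of the 3 was near the threshold, with adjusted limma p-values of 0.809 or more.

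Phosphofructokinase commits sugar to glycolysis, and PFKP, the platelet-type subunit, supplied most of its RNA. PFKP had 92.8, 97.3 and 100 RPKM in OTUB2 libraries, 91.1, 92.8 and 94.3 RPKM in SNX29P2 libraries, and 103, 99.4 and 105 RPKM in vector libraries. SNX29P2 libraries lay below all vector libraries (log2 fold change -0.14, SE 0.0519, limma adjusted p = 0.551), and OTUB2 libraries overlapped them (-0.08, limma adjusted p = 0.819). PFKM, the muscle-type subunit, averaged 14.7 ± 0.352, 15.0 ± 0.607 and 15.2 ± 1.75 RPKM with OTUB2, SNX29P2 and vector (SD, n = 3 each).

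Lower glycolysis runs from GAPDH to PKM. GAPDH had 1226, 1255 and 1229 RPKM in OTUB2 libraries, 1269, 1237 and 1192 RPKM in SNX29P2 libraries, and 1341, 1284 and 1249 RPKM in vector libraries, so the groups overlapped, narrowly for OTUB2 against the vector. Its log2 fold changes were -0.06 with OTUB2 (limma adjusted p = 0.887) and -0.07 with SNX29P2 (limma adjusted p = 0.779). An antisense gene of 422 bases, RP5-940J5.9, lies wholly within its exons at 2955 RPKM, and without strand information the reads of the 2 genes cannot be told apart. ENO1, the main enolase, had 695, 679 and 673 RPKM in OTUB2 libraries, 684, 653 and 661 RPKM in SNX29P2 libraries, and 651, 640 and 701 RPKM in vector libraries. Its log2 fold changes were 0.04 and 0.01, with the sign of the SNX29P2 value turning to negative (-0.01) under upper-quartile scaling. PKM had 238, 236 and 239 RPKM in OTUB2 libraries, 237, 232 and 229 RPKM in SNX29P2 libraries, and 238, 228 and 235 RPKM in vector libraries. The 3 groups overlapped.

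ENO2, the neuronal enolase, had 7.61, 6.98 and 7.61 RPKM in OTUB2 libraries, 8.64, 6.86 and 8.06 RPKM in SNX29P2 libraries, and 17.5, 7.74 and 7.95 RPKM in vector libraries. Vector replicate 1 held more than any other library, and the other 8 lay between 6.86 and 8.64 RPKM. The log2 fold change with OTUB2 was -0.47 (SE 0.263, limma adjusted p = 0.810) and -0.08 without vector replicate 1. With SNX29P2 it was -0.39 (limma adjusted p = 0.745). ENO3, the muscle-type enolase, was measured at 141 to 173 RPKM, although the muscle gene ACTA1 was at most 0.0292 RPKM. Its exons share 111 bases with the antisense PFN1, which had 44103 to 59132 reads against 24234 to 32278 for ENO3. The log2 RPKM levels of both genes, which are scaled for depth, correlated at r = 0.974 over the 9 libraries. ENO3 levels are therefore given with that limit.

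Lactate dehydrogenase, which converts pyruvate to lactate, did not separate the groups at this spread. LDHB had 263, 259 and 255 RPKM in OTUB2 libraries, 261, 259 and 259 RPKM in SNX29P2 libraries, and 253, 257 and 268 RPKM in vector libraries, with log2 fold changes of -0.00 (95% interval -0.11 to 0.10) with OTUB2 and 0.00 (95% interval -0.10 to 0.11) with SNX29P2. LDHA averaged 194 ± 10.7 RPKM with OTUB2, 201 ± 10.2 RPKM with SNX29P2 and 199 ± 29.9 RPKM with the vector (SD, n = 3 each).

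Beyond PGLS and TKT, the pentose phosphate genes were spread on both sides of the vector level. PGD, the phosphogluconate dehydrogenase that makes NADPH, averaged 60.8 ± 1.28 RPKM with OTUB2, 59.6 ± 0.529 RPKM with SNX29P2 and 62.6 ± 5.18 RPKM with the vector (SD, n = 3 each). The pentose isomerase RPIA, the epimerase RPE and the transaldolase TALDO1 had log2 fold changes of 0.15, -0.05 and 0.08 with OTUB2 and of 0.02, 0.11 and -0.05 with SNX29P2. None of these passed the test.

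In glycogen metabolism, no member passed the test, and PYGB exceeded PYGL and PGM2 exceeded PGM1 in all 9 libraries. The brain-type phosphorylase PYGB had 44.9, 47.2 and 45.3 RPKM in OTUB2 libraries, 42.1, 41.8 and 40.7 RPKM in SNX29P2 libraries, and 43.4, 45.3 and 41.4 RPKM in vector libraries. PGM2, a phosphopentomutase, had 32.8, 30.3 and 30.4 RPKM in OTUB2 libraries, 32.5, 30.7 and 34.1 RPKM in SNX29P2 libraries, and 29.8, 27.0 and 32.6 RPKM in vector libraries. For both genes each overexpression group overlapped the vector group, while the OTUB2 libraries lay above the SNX29P2 libraries for PYGB. The phosphoglucomutase PGM1, the branching enzyme GBE1, the synthase GYS1 and the glucose pyrophosphorylase UGP2 had log2 fold changes between -0.16 and 0.09 with OTUB2 and between -0.19 and 0.11 with SNX29P2.

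Isozyme shares were compared by an exact permutation test, which for 3 against 3 libraries cannot give a p below 0.1. HK2 made up 40.4% ± 2.68 of the hexokinase RPKM with OTUB2, 42.3% ± 3.42 with SNX29P2 and 41.8% ± 3.40 with the vector (SD, n = 3 each). PFKP supplied 79.3%, 78.7% and 79.1% of the phosphofructokinases, and LDHB 57.2%, 56.4% and 56.7% of the lactate dehydrogenases, in the same order of groups. ALDOC supplied 0.639% ± 0.10 of the aldolase RPKM with OTUB2, 0.717% ± 0.154 with SNX29P2 and 1.53% ± 0.673 with the vector (SD, n = 3 each), and PGM2 67.5% ± 1.93, 68.8% ± 1.38 and 63.9% ± 3.17 of PGM1 and PGM2 together. ENO2 was 1.07% ± 0.0515, 1.16% ± 0.109 and 1.64% ± 0.839 of ENO1 and ENO2, with 2.61% in vector replicate 1. The smallest adjusted p over the 48 exact tests of 16 measures was 0.686.

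**Figure D4:**
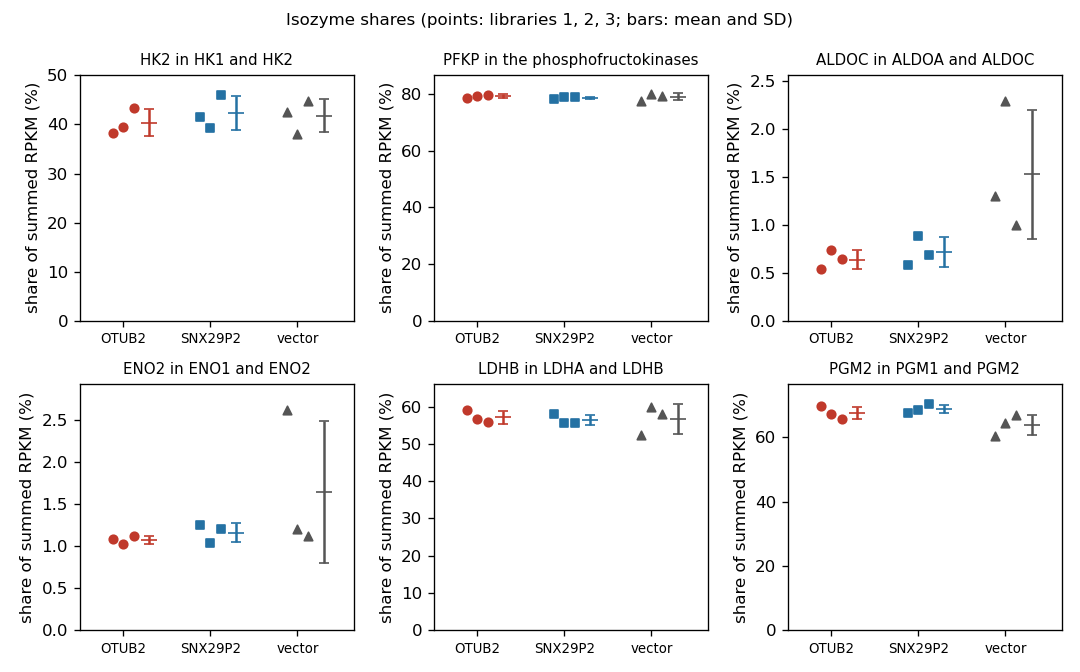
Share of summed RPKM (%) of 1 isozyme within its family, in each library (points), with the mean and SD of each group (n = 3), for OTUB2, SNX29P2 and vector from left to right. ALDOC takes a larger share in the vector libraries, 1.00% to 2.29%, than in the OTUB2 libraries, 0.535% to 0.736%, and the HK2, PFKP and LDHB shares overlap between the groups.

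Glycolytic members together held 3771 ± 15.5 RPKM with OTUB2, 3723 ± 62.0 RPKM with SNX29P2 and 3816 ± 141 RPKM with the vector (SD, n = 3 each). Without ENO3, whose level carries the limit given above, the sums were 3611 ± 13.6, 3576 ± 57.8 and 3659 ± 138 RPKM. The pentose phosphate members held 208 ± 6.03, 200 ± 6.14 and 211 ± 5.96 RPKM, and the glycogen members 139 ± 1.60, 135 ± 3.69 and 139 ± 6.07 RPKM, in the same order. The pentose phosphate sum lay below every vector library with SNX29P2, which gives the smallest exact permutation p the design allows (0.1, adjusted 0.686).

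Between OTUB2 and SNX29P2, again no member was called: 0 of 31 with limma, where 0.0242% of all genes (4) were called, and 0 of 31 with limma voom on the recovered reads. In this direction the median log2 fold change was 0.03, against -0.00 over all genes, and 20 of 31 members were higher with OTUB2. OTUB2 libraries lay above every SNX29P2 library in 7 members (PFKL, PGAM1, ENO3, PGLS, RPIA, TALDO1 and PYGB), against 4.30% of all genes, and below every SNX29P2 library in 0, against 4.05% of all genes. PYGB had the smallest p, at a log2 fold change of 0.14 (SE 0.0557, limma adjusted p = 1.00). ENO3 at 0.13, TALDO1 at 0.13, PGLS at 0.12 and RPE at -0.15 followed it, also with an adjusted p of 1.00. PFN1, the antisense gene that shares exon bases with ENO3, was itself at 0.10 in this comparison. The unadjusted p was under 0.05 for 1 of 31 members (3.23%), against 2.43% of all genes. TALDO1 had 47.2, 47.3 and 52.9 RPKM in OTUB2 libraries and 44.8, 43.3 and 46.5 RPKM in SNX29P2 libraries, and RPE 12.9, 15.0 and 15.5 RPKM in OTUB2 libraries and 14.9, 15.4 and 18.0 RPKM in SNX29P2 libraries.

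The 16 members on the HIF target list were set beside CA9, the carbonic anhydrase that passed the test as lower in both groups. CA9 met the filter of 0.5 RPKM in 3 libraries only through the vector libraries, where it was high. Its entry to the test and its call are therefore not independent. CA9 had 0.198, 0.148 and 0.0900 RPKM in OTUB2 libraries, 0.104, 0.330 and 0.152 RPKM in SNX29P2 libraries, and 3.96, 6.75 and 2.29 RPKM in vector libraries. Its log2 fold change was -4.07 with OTUB2 (SE 0.421, limma adjusted p = 0.0173) and -3.85 with SNX29P2 (SE 0.421, limma adjusted p = 0.0168). The OTUB2 call was lost without OTUB2 replicate 1, 2 or 3 (limma adjusted p = 0.0693, 0.105 and 0.0879) or vector replicate 1 or 2 (0.128 and 0.117), and the SNX29P2 call without SNX29P2 replicate 1 or 3 (0.0771 and 0.123) or vector replicate 1 or 2 (0.145 and 0.112). The OTUB2 call was also lost with voom (0.0897), with only the groups compared (0.0603) and without the libraries numbered 2 (0.396), and the SNX29P2 call with no filter (0.0520), with only the groups compared (0.0606) and without the libraries numbered 2 (0.285). The size of the CA9 difference depends on the pseudocount: at 1 RPKM the log2 fold changes were -2.13 with OTUB2 and -2.07 with SNX29P2, and with voom -4.74 and -4.46. The listed members had a median log2 fold change of -0.05 with OTUB2 and -0.07 with SNX29P2, and 12 of 16 were negative in each. Over all tested genes, 48.0% were negative with OTUB2 and 46.4% with SNX29P2. HIF1A had 81.2, 69.4 and 64.5 RPKM in OTUB2 libraries, 85.1, 75.9 and 71.9 RPKM in SNX29P2 libraries, and 86.3, 74.0 and 69.1 RPKM in vector libraries, and was not called.

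Genes that feed or control these enzymes were taken from 6 lists, with 99 entries, of which 93 were in the table and 73 were tested. The lists, GAA included, were drawn up with earlier results of these data known. A call within them is a description and not independent support. Of all 16533 tested genes, 48.0% lay below the vector level with OTUB2 and 46.4% with SNX29P2. With OTUB2, 0 of the 73 listed genes were called, against 0.0181% of all genes. With SNX29P2 1 of them was called, against 0.0363% of all genes. That gene was GAA, the lysosomal acid glucosidase that breaks down glycogen, which fell with SNX29P2. It had 12.1, 12.5 and 11.5 RPKM in OTUB2 libraries, 10.6, 10.5 and 10.2 RPKM in SNX29P2 libraries, and 18.4, 19.2 and 15.2 RPKM in vector libraries. Every vector library exceeded all 6 others. The log2 fold change was -0.75 with SNX29P2 (SE 0.0897, limma adjusted p = 0.0317) and -0.54 with OTUB2 (SE 0.0897, limma adjusted p = 0.355). The SNX29P2 call was lost when any OTUB2 or SNX29P2 library, vector replicate 1 or vector replicate 2 was left out (limma adjusted p 0.0823 to 0.226). It was also lost with no filter (0.0552), with a filter of 1 RPKM in 6 libraries (0.0694), with only the groups compared (0.182) and without the libraries numbered 2 (0.722). Without vector replicate 3, GAA was also called with OTUB2 (log2 fold change -0.64, limma adjusted p = 0.0327).

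Among the other 15 tested genes of glycogen regulation and lysosomal breakdown, the phosphorylase kinase subunits PHKG1 (log2 fold change 0.30 with OTUB2, limma adjusted p = 0.725) and PHKA2 (-0.38 with SNX29P2, limma adjusted p = 0.502) had the smallest p. Transport of glucose and lactate showed 4 of 8 tested genes higher and 4 lower with OTUB2, and 3 higher and 5 lower with SNX29P2. The glucose transporter SLC2A1 had 24.4, 27.3 and 27.0 RPKM in OTUB2 libraries, 27.6, 26.9 and 25.0 RPKM in SNX29P2 libraries, and 32.2, 23.4 and 25.9 RPKM in vector libraries, with groups that overlapped. The lactate exporter SLC16A3 had 1.90, 2.07 and 1.70 RPKM in OTUB2 libraries, 1.87, 2.10 and 1.70 RPKM in SNX29P2 libraries, and 3.51, 2.33 and 2.01 RPKM in vector libraries, with log2 fold changes of -0.42 in both (limma adjusted p = 0.746 and 0.618). Without vector replicate 1 the SLC16A3 value with OTUB2 was -0.20. The partner that brings lactate transporters to the membrane, BSG, was at -0.08 with OTUB2 (limma adjusted p = 0.839). BSG and SLC16A7, another lactate transporter, had log2 fold changes of -0.16 and 0.41 with SNX29P2 (limma adjusted p = 0.502 and 0.586).

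Of 7 tested genes of pyruvate entry into mitochondria, 6 lay above the vector level with OTUB2 (median log2 fold change 0.07) and 7 with SNX29P2 (median 0.14), and 0 were called. Over all tested genes, 48.0% lay below the vector level with OTUB2 and 46.4% with SNX29P2. The pyruvate carrier subunit MPC1 had 21.2, 21.4 and 20.6 RPKM in OTUB2 libraries, 21.9, 21.0 and 22.9 RPKM in SNX29P2 libraries, and 18.9, 16.8 and 17.7 RPKM in vector libraries. No vector library reached the others. Its log2 fold change was 0.24 with OTUB2 (SE 0.0646, limma adjusted p = 0.560) and 0.30 with SNX29P2 (SE 0.0646, limma adjusted p = 0.488). The pyruvate dehydrogenase subunit PDHB was at 0.15 with OTUB2 (limma adjusted p = 0.784) and DLD, the shared dehydrogenase subunit, at 0.18 with SNX29P2 (limma adjusted p = 0.551).

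Regulators of glycolytic flux were mixed, with 5 of 13 tested genes higher with OTUB2 (median -0.07) and 9 of 13 with SNX29P2 (median 0.03), and 0 called. The glucose-sensing factor MLXIP had log2 fold changes of -0.16 and -0.14 with OTUB2 and SNX29P2 (limma adjusted p = 0.773 and 0.695). TIGAR, which lowers fructose bisphosphate, was at 0.15 with OTUB2 (limma adjusted p = 0.839), and PFKFB4, which makes the activator of phosphofructokinase, at -0.88 with SNX29P2 (SE 0.354, limma adjusted p = 0.579). Without vector replicate 1 the PFKFB4 value was -0.48. PDK1, the kinase that inhibits pyruvate dehydrogenase, was at -0.23 and 0.00 (limma adjusted p = 0.843 and 0.999). Of 18 tested other isozymes and side branches, 8 were higher in each comparison, with medians of -0.03 with OTUB2 and -0.04 with SNX29P2. The muscle mutase PGAM2 was at -0.76 with OTUB2 (limma adjusted p = 0.707), and the galactose enzyme GALT at -0.43 with OTUB2 (limma adjusted p = 0.745) and -0.59 with SNX29P2 (limma adjusted p = 0.519). PGAM4, a retrocopy of PGAM1 whose reads may be shared with it, was at -0.56 with SNX29P2 (limma adjusted p = 0.551). Among 11 tested transcription regulators of these genes, 4 were higher with OTUB2 and 7 with SNX29P2, with medians of -0.03 and 0.02. MYC was at -0.11 and -0.09 (limma adjusted p = 0.861 and 0.825), ARNT, the partner of HIF1A, at 0.14 with OTUB2 (limma adjusted p = 0.817) and EGLN2, an oxygen-sensing hydroxylase, at -0.16 with SNX29P2 (limma adjusted p = 0.701).

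Between OTUB2 and SNX29P2, 0 of the 73 listed genes were called, against 0.0242% of all genes. Of the 73, 30 were higher with OTUB2, while 51.4% of all tested genes were lower with OTUB2. The genes with the smallest p in each list had log2 fold changes of -0.33 for SLC16A7, 0.09 for BSG, -0.23 for PDK1, 0.43 for PFKFB4, -0.08 for DLD, -0.09 for the dehydrogenase subunit DLAT, 0.61 for PGAM4, 0.08 for PRPS1, which makes phosphoribosyl pyrophosphate, 0.29 for PHKG1, 0.20 for GAA, -0.16 for EGLN1, the main oxygen-sensing hydroxylase acting on HIF, and 0.12 for KEAP1, the inhibitor of NFE2L2. All had a limma adjusted p of 1.00.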

How the data were processed

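The 9 libraries come in 1 table that the authors deposited, holding RPKM values beside exon coordinates and the length of each gene, per the file headers. The build is GRCh38, per the submitters' processing notes. For the aligner, the counting program, strand handling and the annotation, nothing is stated (not given in the sources used here). Each library's RPKM times gene length summed to 1000000. Under 1000 reads, 100% of the values came out as whole reads (tolerance 0.05), so reads were recovered, and depth was 38.5 to 48.6 in units of 1000000 reads. No count model served as the main test. Counting intervals were not used, since the replicate spread sets the error.

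Genes with at least 0.5 RPKM in 3 libraries (16533) entered 1 limma model (limma 3.58.1, R 4.3.3, trended variance) on log2(RPKM + 0.1), which understates changes of low genes, with only the group in the design. A call means a Benjamini-Hochberg adjusted p under 0.05. The programs were tested on simulated data. The libraries of 1 group differed by more than counting noise (chi-square per gene 12.0 to 39.6). Shares and sums were compared by a two-sided exact permutation test. Python 3.11.15, pandas 2.3.3, numpy 2.4.6, scipy 1.17.1 and matplotlib 3.10.9 were used. Promoter windows were RefSeq sequence, searched for ACGTG on both strands.

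The members and the lists of related genes were chosen with earlier results of these data known. Full values were given for members called, the 5 with the smallest p in each comparison and the most abundant of each isozyme family, and, from each related list, for called genes or the 2 with the smallest p. TKT, HIF1A, SLC2A1 and the genes most like ALDOC were added for description. In the table, 14 of the 31 members share exon bases with another gene, and 12 have pseudogenes, 52 in all, holding at most 0.310% of the reads of their gene. Alternatives were other pseudocounts, filters, scalings, limma voom, a replicate block, only the groups compared, each library left out, and the libraries numbered 2 left out.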

Additional observations from a re-analysis of the deposited data

How the results depend on the processing

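No alternative called a member in any comparison, although ALDOC and PYGL were not tested under the filter of 1 RPKM in 6 libraries. Of 798 alternative values for 40 member fold changes, 789 were labelled as unchanged in direction and side of the threshold. Direction was judged on rounded values, so a fold change of 0.00 could not count as turned. LDHB was such a case in every comparison. It ran from -0.02 to 0.02 with OTUB2 and with SNX29P2, and from -0.02 to 0.01 in OTUB2 against SNX29P2. Genes called over the whole table moved more. With OTUB2 against vector (3 as reported) they were 7 with no filter, 1 with only the groups compared, 1 without the libraries numbered 2 and 1 to 8 leaving out 1 library. Without OTUB2 replicate 1, the library with haemoglobin reads, the number was 1. With SNX29P2 against vector (6 as reported) they were 1 with a filter of 1 RPKM in 6 libraries, 10 with voom, 3 without the libraries numbered 2 and 4 to 8 leaving out 1 library. With OTUB2 against SNX29P2 (4 as reported) they were 1 with the stricter filter. That filter removed the SNX29P2 gene and CA9 from the test, so neither could be called under it. The members' median log2 fold change with OTUB2 was -0.08 without the libraries numbered 2 and -0.09 to 0.01 leaving out 1 library, and with SNX29P2 -0.10 to -0.04. Signs turned for ENO1 with SNX29P2 (-0.01 with upper-quartile scaling and without the libraries numbered 2, -0.02 to 0.05 leaving out 1 library) and, leaving out 1 library, for HK1 (-0.02 to 0.13) and PKM (-0.03 to 0.01) with SNX29P2 and for GAPDH (-0.02 to 0.03) in OTUB2 against SNX29P2. CA9 in OTUB2 against SNX29P2 was 0.07 without the libraries numbered 2 and -0.45 to 0.09 leaving out 1 library. Over all alternatives, values not called moved by over 1.5 times for ENO2 (-0.67 to -0.08), TIGAR (0.08 to 0.23), PGAM2 (-0.98 to -0.40) and GALT (-0.63 to -0.28) with OTUB2, for GALT (-0.80 to -0.37) and SLC16A7 (0.25 to 0.52) with SNX29P2, and for PFKFB4 (0.21 to 0.61) and PHKG1 (0.16 to 0.40) in OTUB2 against SNX29P2, among others. The cause was not tested. The count of members below every vector library was recomputed under the median-of-ratios and upper-quartile scalings, a step added after seeing the data, and was 9 and 9 with OTUB2 and 9 and 8 with SNX29P2. The share of all tested genes under these scalings was not computed, so these counts say nothing particular to the members. Deviations from the group means correlated over 0.1 in 7 of 9 same-number pairs of libraries (r -0.0178 to 0.270) and in 0 of 18 different-number pairs (at most 0.0502). All pairs numbered 2 and 3 passed 0.1, and 2 of the 3 numbered 1 did not. Pairing was taken only where every pair passed, so the numbers were not used as pairs, although no different-number pair reached the level of those 7. A replicate block called 0 members and 4 genes with OTUB2, 9 with SNX29P2 and 4 in OTUB2 against SNX29P2. With that block CA9 kept its call with OTUB2 and with SNX29P2 (limma adjusted p = 0.0380 and 0.0222). GAA kept its call with SNX29P2 (limma adjusted p = 0.0274). ALDOC had a limma adjusted p of 0.184 with OTUB2 and 0.157 with SNX29P2.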

Other observations

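The library number went with the level of several members. The number 2 library was the lowest of its group in all 3 groups for 8 of 31 members (25.8%, against 10.4% of all tested genes): HK1, HK2, PFKM, ALDOA, ENO2, TKT, PGM2 and GYS1. It was the highest in all 3 groups for ALDOC alone among the members (14.2% of all tested genes). Vector replicate 1 was the highest of the 9 libraries for 13 members, against 18.8% of all tested genes, and vector replicate 2 the lowest for 12, against 18.7%. The part of these libraries in the members' fold changes was not tested beyond leaving each one out.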
